A study of Mus musculus with 8 samples.

Results

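The enzymes described here make and guard the deoxynucleotide pool: Tk1, Rrm1, Rrm2, Tyms, Dut, Dck and Dtymk. Every probe set of the array annotated with exactly 1 of these 7 symbols was taken, which gave 19 of 45101 probe sets and 7 of 18193 genes. RNA came from NS5 cells, a line of neural stem cells from mouse brain, with the age E11.5 in the labels of all groups. All cells were first plated with FGF2 and EGF for 24 h and then kept for 4 h without growth factors. For the next 48 h they were in 1 of 4 treatments: FGF2 with ethanol at 400 mg/dl, FGF2 alone, TGF-beta1 with ethanol at 400 mg/dl, or TGF-beta1 alone. The groups are called Ethanol and FGF2, FGF2, Ethanol and TGF-beta1, and TGF-beta1. The labels give 10 ng/ul for both FGF2 and TGF-beta1, a dose unit that the values cannot check. Each group had 2 arrays, and the labels do not say whether they came from separate cultures, so p values measure only the spread between these samples. All groups are 1 cell line.

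Ribonucleotide reductase, built from the large subunit Rrm1 and the small subunit Rrm2, turns ribonucleoside diphosphates into deoxyribonucleotides and is the rate-limiting step of their synthesis. Dut makes dUMP by cleaving dUTP, and Dctd, not a member, makes it by deaminating dCMP. Thymidine nucleotides come from dUMP, which Tyms methylates, or from thymidine taken up by the cell, which Tk1 phosphorylates. Dtymk adds the next phosphate on both routes, and Dck salvages deoxycytidine, deoxyadenosine and deoxyguanosine. Transcripts of Tk1, Rrm2 and Tyms are known to peak in S phase, and neural stem cells need the pool to divide. Dck is known to be less tied to the cell cycle.

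Each array was scaled to a 2% trimmed mean of 500, the median signal lay between 50.6 and 86.5, and the number of arrays limits the precision. Fn1, a matrix gene that separated the growth factors without ethanol, had signals of 6828 and 116 in Ethanol and FGF2, 119.7 and 139 in FGF2, 124 and 8226 in the TGF-beta1 group with ethanol, and 3015 and 4109 in TGF-beta1 alone (replicates 1 and 2). Both ethanol arrays labelled replicate 1 therefore went against the growth factor on their labels, and the main results are also given without this pair, called the doubted arrays. Neural stem markers were present: 7 of the 8 measured passed the signal filter, among them Nes, Sox2, Pax6, Fabp7 and Vim. All 6 endothelial markers and 4 of 6 microglia markers were under a signal of 100 on every array. The ratio of the 3' to the 5' Gapdh probe set, a measure of RNA integrity that is low in intact RNA, was 3.33 and 3.48 in Ethanol and FGF2, 1.64 and 2.20 in FGF2, 1.93 and 2.06 in the TGF-beta1 group with ethanol, and 1.70 and 2.20 in TGF-beta1 alone.

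With ethanol, averaged over both growth factors, transcripts of both ribonucleotide reductase subunits, thymidine kinase and dUTPase were lower. By limma, on log2(signal + 23.66) with 1 probe set per gene, 4 of the 7 members fell at an adjusted p under 0.05 and 0 rose, where 1.80% of the 10916 genes tested fell and 0.183% rose. The members were chosen with earlier results of these data known, so the count is a description. All 7 members passed the signal filter, Tyms only narrowly. Tk1 fell most, 12.6-fold, Rrm2 4.93-fold, Rrm1 3.82-fold and Dut 2.78-fold. Dtymk, Dck and Tyms did not pass. The median log2 fold change was −1.47 over the 7 members and 0.03 over all genes tested. In 5 members, Tk1, Rrm1, Rrm2, Dut and Dtymk, all 4 ethanol arrays lay below all 4 arrays without ethanol, as they did in 4.45% of genes tested, while 2.98% had all ethanol arrays above. In RNA of whole cultures, fewer cells making a transcript and less of it per cell cannot be told apart. Without both doubted arrays limma called 0 of the 7 members (0 of 10916 genes, 1150 at an unadjusted p under 0.05), while the median over the members was −1.48. In that fit Tk1 had −3.08, Rrm1 −1.82, Rrm2 −1.81 and Dut −1.48 on the log2 scale (limma adjusted p = 0.0721, 0.0846, 0.0611 and 0.133). With TGF-beta1 replicate 1 left out the count was 2 (Tk1 and Rrm2), since Rrm1 and Dut had adjusted p of 0.0503 and 0.0702.

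**Figure D1:**
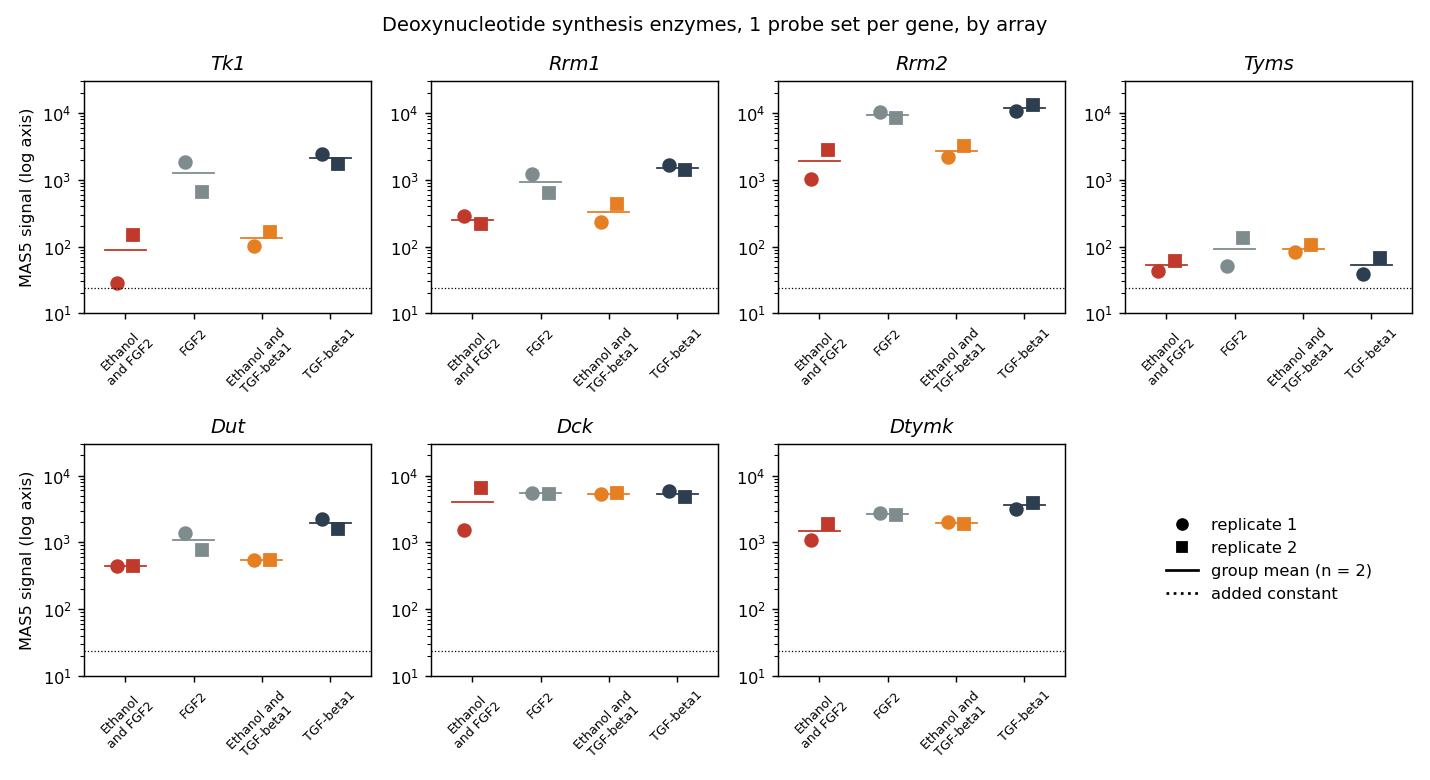
MAS5 signal (log axis) of the probe set used for each member on each of the 8 arrays; circles are replicate 1, squares replicate 2, lines group means, and the dotted line the added constant of 23.66. For Tk1, Rrm1, Rrm2, Dut and Dtymk every ethanol array lies below every array without ethanol, while Tyms stays near the bottom and Dck is low on 1 array only.

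Promoters of 3 members that fell, and of Dck, which did not pass the test, are shown to set the sequences beside the values. Each runs from 250 bases before to 50 after a RefSeq transcript start (GRCm38.p6), and all 7 members had a window. Capitals mark matches on either strand to 4 motifs: E2F-like (TTCCCGC or TTGGCGC or TTCGCGC), the CCAAT box (CCAAT), the CHR element (TTTGAA) and the GC box (GGGCGG). The windows are chr7:102441445-102441744 on the plus strand for Rrm1, chr12:24708004-24708303 on the plus strand for Rrm2, chr11:117825965-117826264 on the minus strand for Tk1 and chr5:88764763-88765062 on the plus strand for Dck.
Rrm1: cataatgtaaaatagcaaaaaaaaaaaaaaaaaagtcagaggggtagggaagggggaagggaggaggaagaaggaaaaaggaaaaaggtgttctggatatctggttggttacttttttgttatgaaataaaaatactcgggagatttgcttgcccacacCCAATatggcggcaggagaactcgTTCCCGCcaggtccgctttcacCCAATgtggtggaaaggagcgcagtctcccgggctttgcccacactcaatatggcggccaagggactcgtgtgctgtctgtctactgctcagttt
Rrm2: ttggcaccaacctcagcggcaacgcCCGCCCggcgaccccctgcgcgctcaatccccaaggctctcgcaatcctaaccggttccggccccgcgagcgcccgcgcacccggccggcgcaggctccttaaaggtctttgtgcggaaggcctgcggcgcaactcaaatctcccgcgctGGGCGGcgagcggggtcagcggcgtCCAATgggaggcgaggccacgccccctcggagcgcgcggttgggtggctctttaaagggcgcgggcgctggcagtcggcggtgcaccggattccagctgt
Tk1: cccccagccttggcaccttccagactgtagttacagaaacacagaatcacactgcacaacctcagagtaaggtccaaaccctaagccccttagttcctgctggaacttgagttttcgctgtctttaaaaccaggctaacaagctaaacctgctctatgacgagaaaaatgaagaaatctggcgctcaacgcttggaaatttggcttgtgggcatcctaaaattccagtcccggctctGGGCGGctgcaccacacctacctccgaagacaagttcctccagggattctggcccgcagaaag
Dck: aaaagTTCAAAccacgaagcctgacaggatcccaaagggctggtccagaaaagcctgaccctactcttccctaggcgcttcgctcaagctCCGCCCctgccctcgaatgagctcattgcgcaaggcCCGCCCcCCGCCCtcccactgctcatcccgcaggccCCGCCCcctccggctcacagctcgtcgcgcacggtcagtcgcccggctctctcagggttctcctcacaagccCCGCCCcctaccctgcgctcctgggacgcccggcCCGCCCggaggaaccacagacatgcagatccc
An E2F-like match stood in 2 of the 7 windows, Rrm1 (67 bases before the start) and Dtymk (72 before), against 8.07% of 32851 RefSeq windows of this length. CCAAT stood in 3 (Rrm1, Rrm2 and Dtymk; 37.4% of all windows), TTTGAA in 1 (Dck; 17.9%) and the GC box in 5 (Tk1, Rrm2, Tyms, Dut and Dck; 35.7%). A match is only a description, and the absence of these letters from a window says nothing of the factor.

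The reductase subunits were lower on every ethanol array. Rrm1 (chromosome 7, 102441695 to 102469771, GRCm38.p6) had signals of 284 and 217 in Ethanol and FGF2, against 1202 and 627 in FGF2. The values were 237 and 432 with TGF-beta1 and ethanol, against 1652 and 1380.35 in TGF-beta1 alone. The ethanol arrays did not overlap with the others, and FGF2 replicate 2 was the lowest without ethanol. The log2 fold change in the average was −1.93 ± 0.27 (SE; limma adjusted p = 0.00663). A second probe set of Rrm1, 1448127_at, fell by 1.55 on the log2 scale (SE 0.25, limma adjusted p = 0.013 over 20967 probe sets). The remaining one, 1440073_at, was below the signal filter, with signals from 4.02 to 48.9, and with the mean of all 3 the log2 fold change of Rrm1 was −1.16 (limma adjusted p = 0.0429).

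Rrm2 (chromosome 12, 24708254 to 24714146) fell too, and the size of its fall was not tested against that of Rrm1. The probe set used for the gene, 1434437_x_at, had signals of 1030.4 and 2748 in Ethanol and FGF2, against 10456 and 8311 in FGF2. Its signals were 2185 and 3247 with TGF-beta1 and ethanol, against 10753 and 13208 in TGF-beta1 alone. All ethanol arrays were below all others, and Ethanol and FGF2 replicate 1 was the lowest. The log2 fold change in the average was −2.30 ± 0.30 (SE; limma adjusted p = 0.00473). The suffix x_at marks probes that may also match other transcripts. By 1448226_at, without that suffix, Rrm2 had 205 and 149 in Ethanol and FGF2, against 1664 and 1427 in FGF2, while Ethanol and TGF-beta1 arrays had 235 and 372, against 2454 and 3309.99 in TGF-beta1. Its log2 fold change was −3.07 ± 0.22 (SE; limma adjusted p = 0.00176), a larger fall than by the x_at probe set. By the dim 1416120_at it was −2.20 ± 0.41 (SE; limma adjusted p = 0.029).

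Tk1 (chromosome 11, 117815519 to 117826087), the cytosolic kinase that salvages thymidine, had the largest fall of the members. Its 1 probe set had signals of 28.8 and 151 in Ethanol and FGF2, against 1849.7 and 657 in FGF2. The Ethanol and TGF-beta1 arrays had 102 and 163, against 2442 and 1719.8 in TGF-beta1. The ethanol arrays did not overlap with those without ethanol, within either growth factor or overall. The log2 fold change in the average was −3.66 ± 0.44 (SE; limma adjusted p = 0.0031), with a 95% interval from −4.65 to −2.67. It ranked 4 from the lowest of all 10916 genes. The signal on Ethanol and FGF2 replicate 1 was close to the added constant, so the size depends on it: the log2 fold change was −3.93 with a constant of 5 and −2.99 with 100.

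Dut (chromosome 2, 125247248 to 125259049) keeps uracil out of DNA by removing dUTP. Its probe set 1419270_a_at had signals of 449 and 439.8 in Ethanol and FGF2, against 1395 and 778 in FGF2. It had 541 and 543 with TGF-beta1 and ethanol, against 2248 and 1596 in TGF-beta1 alone. The ethanol arrays lay within a narrow band below all others. The log2 fold change in the average was −1.47 ± 0.22 (SE; limma adjusted p = 0.00913). The dimmer 1419269_at gave −1.48 ± 0.31, just short of the threshold (SE; limma adjusted p = 0.0525).

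Dtymk (chromosome 1, 93792576 to 93802068), thymidylate kinase, was lower on all ethanol arrays but did not pass by the probe set used for the gene. That probe set, 1438096_a_at, had signals of 1085 and 1910.15 in Ethanol and FGF2, against 2753 and 2593 in FGF2. In Ethanol and TGF-beta1 it had 1993 and 1904, against 3195 and 3955 in TGF-beta1. The log2 fold change was −0.87 ± 0.20 (SE; limma adjusted p = 0.0767), with a 95% interval from −1.32 to −0.42. It passed with the mean of its 3 probe sets, at −0.93 (limma adjusted p = 0.0152), and in an additive model of ethanol and growth factor (limma adjusted p = 0.0499). Of the other 2 probe sets, 1449116_a_at fell by 1.16 on the log2 scale (SE 0.22, limma adjusted p = 0.0348), and 1452681_at had −0.75 ± 0.22 (SE; adjusted p = 0.187).

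For Tyms (chromosome 5, 30038546 to 30073645), thymidylate synthase, the probe sets that name it alone were all dim. The brightest, 1442192_at, had 43.7 and 61.8 in Ethanol and FGF2, against 50.4 and 134 in FGF2, while Ethanol and TGF-beta1 arrays had 81.8 and 104, against 39.1 and 68.3 in TGF-beta1. The groups overlapped. Its mean log2 value of 6.53 was just above the filter of 6.40, and its log2 fold change was 0.05 ± 0.34 (SE; limma adjusted p = 0.976). The other 3 probe sets were below the filter, with signals from 1.56 to 106. These probe sets therefore carry little information on Tyms. A brighter probe set lists Tyms together with the pseudogene Tyms-ps and was not used for either gene. Its signals were 238 to 324 with and 529 to 1311 without ethanol, and they cannot be assigned to either.

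Dck (chromosome 5, 88765013 to 88783277), deoxycytidine kinase, was at a like level on 7 of the 8 arrays by the probe set used for the gene. Its probe set 1439012_a_at had signals of 1524 and 6586 in Ethanol and FGF2, against 5526 and 5312 in FGF2. The Ethanol and TGF-beta1 arrays had 5337 and 5415, against 5875 and 4812 in TGF-beta1. Ethanol and FGF2 replicate 1 was the lowest array and replicate 2 of the same group the highest. The log2 fold change in the average was −0.38 ± 0.38 (SE; limma adjusted p = 0.811), with a 95% interval from −1.24 to 0.48, which spans falls as well as rises. Without Ethanol and FGF2 replicate 1 it was 0.15 (limma adjusted p = 0.731), and without Ethanol and FGF2 replicate 2 it was −0.90 (limma adjusted p = 0.0318). Its other 2 probe sets, 1449176_a_at and 1428838_a_at, had −0.79 ± 0.37 and −0.64 ± 0.40 (SE), neither past the test (limma adjusted p = 0.491 and 0.632). They did not show that like level. Signals of 1449176_a_at were 190 to 882 with and 561 to 1277 without ethanol. Those of 1428838_a_at were 90.7 to 96.5 with and 43.3 to 249 without.

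Over all probe sets, 15 of the 19 were above the filter and 8 of these fell, where 1.27% of the 20967 probe sets tested did. The 8 belonged to 5 genes, Tk1, Rrm1, Rrm2, Dut and Dtymk. In 11 of the 15 all 4 ethanol arrays were below all arrays without ethanol, as in 3.88% of probe sets tested. For Dtymk 1452681_at the gap was slight, from 2531.8 on the highest ethanol array to 2532.8 on the lowest without ethanol. Probe sets of 1 gene share its transcript and are not replicates.

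**Figure D2:**
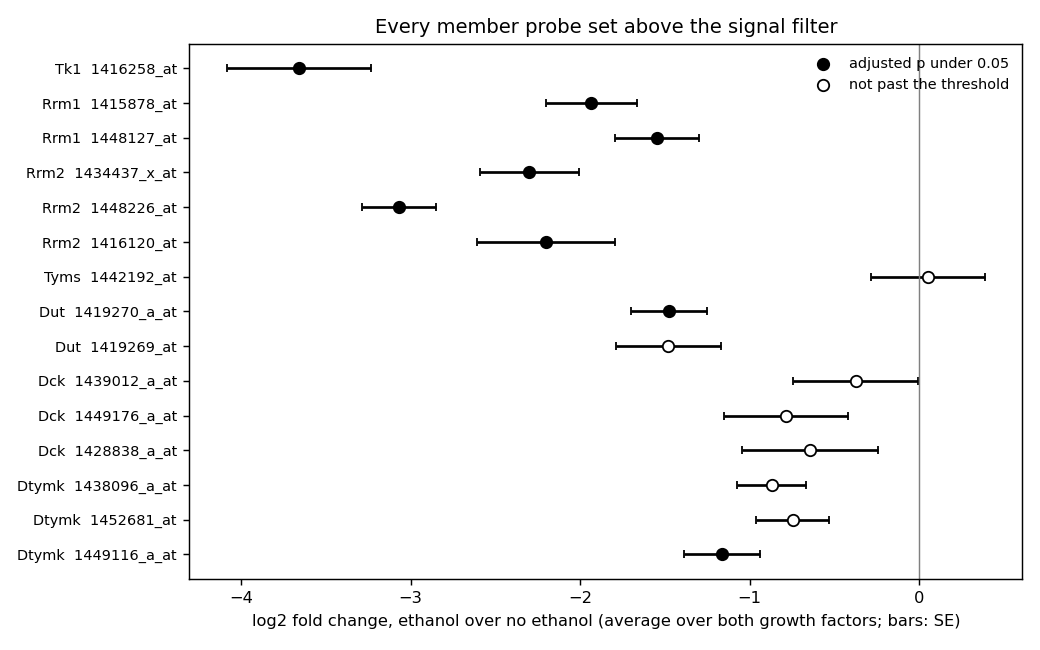
Log2 fold change of ethanol over no ethanol, averaged over both growth factors, for each of the 15 member probe sets above the signal filter; bars are SE and filled points have an adjusted p under 0.05. The 3 probe sets of Rrm2 lie between −3.07 and −2.20, and those of Dck nearer to 0.

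Within each growth factor Tk1, Rrm1, Rrm2, Dut and Dtymk had log2 fold changes below 0, and the call depended on the factor and on single arrays. Within TGF-beta1, 3 of 7 members fell: Tk1 (−3.76 ± 0.62, SE; limma adjusted p = 0.0255), Rrm1 (−2.15 ± 0.38, adjusted p = 0.0367) and Dut (−1.76 ± 0.31, adjusted p = 0.0366), where 1.12% of genes tested fell and 0.0733% rose. Rrm2 had −2.15 ± 0.42, just short of the threshold by limma (adjusted p = 0.0513). Within FGF2, limma called 0 of 7 members and 0% of genes tested, with 906 genes at an unadjusted p under 0.05. There Tk1 had −3.56 ± 0.62, Rrm2 −2.45 ± 0.42, Rrm1 −1.71 ± 0.38 and Dut −1.19 ± 0.31 on the log2 scale (SE), at limma adjusted p from 0.0688 to 0.286. The size rested on single arrays: Tk1 had −2.69 without Ethanol and FGF2 replicate 1, −4.43 without replicate 2 of that group, −2.83 without FGF2 replicate 1 and −4.29 without FGF2 replicate 2. Rrm2 had −1.75 without Ethanol and FGF2 replicate 1 and −3.15 without replicate 2 of that group. The interaction of ethanol and growth factor was tested directly and limma called 0 of 7 members (0% of genes, 484 at an unadjusted p under 0.05), with log2 values from −0.57 for Dut to 1.12 for Tyms. Both within-factor results contain 1 doubted array. The TGF-beta1 count was 0 without both doubted arrays, 0 without Ethanol and TGF-beta1 replicate 1, TGF-beta1 replicate 1 or TGF-beta1 replicate 2, and 1 without Ethanol and TGF-beta1 replicate 2. It was also 0 with moderation without a trend, where Tk1, Rrm1 and Dut had adjusted p of 0.0501, 0.0601 and 0.0601. The FGF2 count was 1 without FGF2 replicate 2. The Gapdh 3' to 5' ratio was higher in both Ethanol and FGF2 arrays than in FGF2, and overlapped between the TGF-beta1 groups. Its part in the result was not tested.

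**Figure D3:**
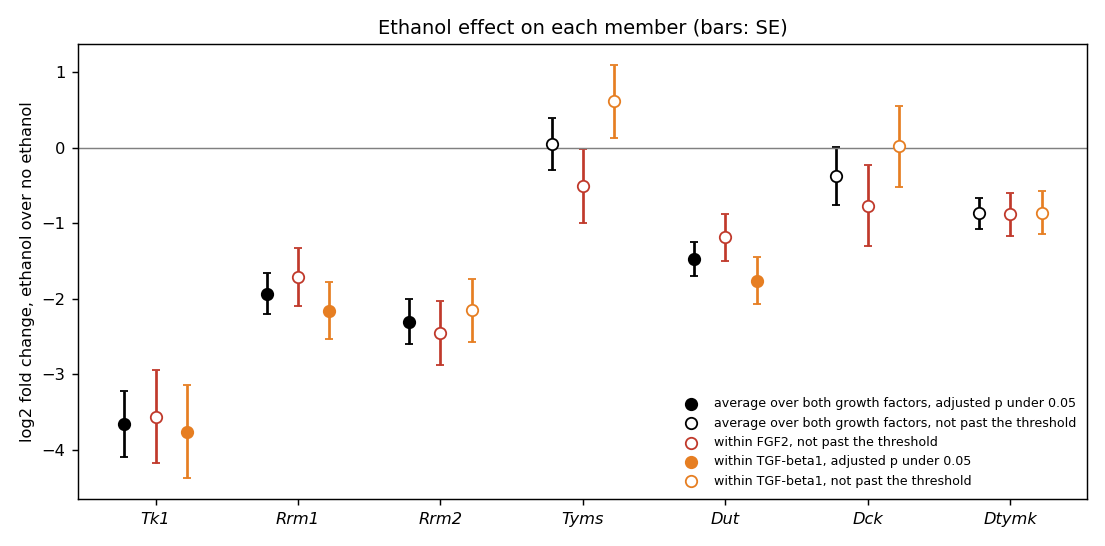
Log2 fold change of ethanol over no ethanol for each member, in the average (black), within FGF2 (red) and within TGF-beta1 (orange); bars are SE, filled points have an adjusted p under 0.05 by limma. Tk1 lies lowest in all 3 comparisons, and Tyms and Dck lie nearest to 0 in the average.

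Between the growth factors no member passed. For TGF-beta1 against FGF2 without ethanol limma called 0 of 7 (0% of genes tested, 542 at an unadjusted p under 0.05), with log2 fold changes from −0.51 for Tyms to 0.88 for Tk1. Rrm1 and Dut had 0.78 ± 0.38 and 0.85 ± 0.31 (SE; limma adjusted p = 0.98 each). For the TGF-beta1 against the FGF2 group with ethanol it called 0 of 7 (0% of genes tested, 288 at an unadjusted p under 0.05), with values from 0.27 for Dut to 0.76 for Dck, in a comparison that holds both doubted arrays. Ordered by group mean, Tk1, Rrm1, Rrm2, Dut and Dtymk were lowest in the 2 ethanol groups, then FGF2, then TGF-beta1. The order of the ethanol groups is not given, since it rests on the labels of the doubted arrays. The Rrm1 means were 251 ± 47.6 in Ethanol and FGF2, 914 ± 407 in FGF2, 334 ± 138 in Ethanol and TGF-beta1 and 1516 ± 192 in TGF-beta1 (SD, n = 2 each). The 2 ethanol groups overlapped for Rrm1 and the 2 groups without ethanol did not, and neither pair of neighbours passed the test. Among arrays without ethanol, FGF2 replicate 2 was the lowest for Tk1, Rrm1, Rrm2, Dut and Dtymk.

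Relatives of the members that serve the mitochondrion or the repair of DNA gave a contrast within each array. Tk2 and Dguok are the mitochondrial deoxynucleoside kinases, and Rrm2b is the p53-induced small subunit of the reductase. Tk2 had signals of 119 and 104 in Ethanol and FGF2, against 109.8 and 126 in FGF2, while Ethanol and TGF-beta1 arrays had 152 and 123, against 97.4 and 104 in TGF-beta1. Rrm2b had signals from 5030 to 5258 with ethanol and 3768 to 5058 without. Their log2 fold changes were 0.15 ± 0.24 and 0.20 ± 0.15 (SE), and that of Dguok was 0.19 ± 0.20, none past the test (limma adjusted p = 0.895, 0.729 and 0.823). The log2 value of Tk1 less that of Tk2 was −0.28 ± 0.88 with and 3.53 ± 0.94 without ethanol (SD, n = 4 each), a difference of −3.81 (two-sided exact permutation test, p = 0.0286, the smallest that 4 against 4 arrays allow, and 0.0429 adjusted over the 3 pairs). Rrm2 less Rrm2b was −1.28 ± 0.74 with and 1.22 ± 0.29 without ethanol (SD, n = 4 each), a difference of −2.50 (same exact permutation p of 0.0286, adjusted 0.0429). Dck less Dguok was 3.58 ± 1.08 with and 4.14 ± 0.11 without ethanol, a difference of −0.57 (exact permutation p = 0.4). Only the change of such a difference is interpretable, since probe sets of different genes differ in brightness. For Tk1 and Rrm2 all ethanol arrays already lay below the others, and Tk2 and Rrm2b changed little. The smallest p was thus set by that separation, so these tests add no support beyond it. Without both doubted arrays the first 2 differences were −3.13 and −1.998, at the smallest exact permutation p that design allows (0.0667 each).

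**Figure D4:**
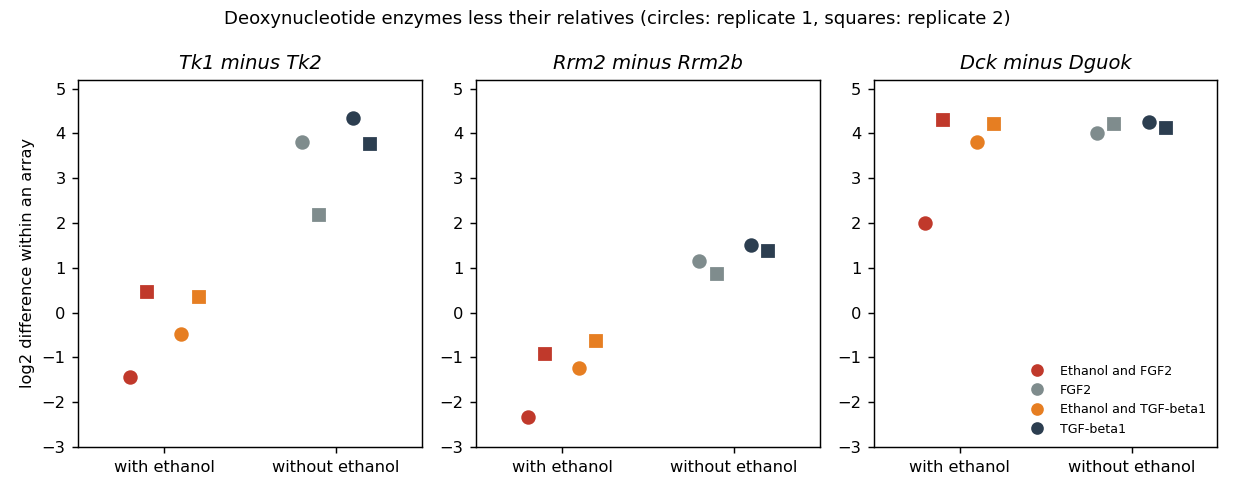
Log2 value of a member less that of its relative within each array, with ethanol on the left and without on the right of each panel; circles are replicate 1 and squares replicate 2, coloured by group. Tk1 less Tk2 and Rrm2 less Rrm2b do not overlap between ethanol and no ethanol, while Dck less Dguok differs mainly on 1 array.

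Across the rest of nucleotide metabolism, taken as lists of textbook pathways, 1 gene passed in the average. Of 11 other deoxynucleotide enzymes tested, 0 fell and 0 rose in the average (median log2 fold change −0.07), and Samhd1, which degrades deoxynucleotides, had −0.20 ± 0.24 (SE; limma adjusted p = 0.844). Dctd, which deaminates dCMP to dUMP, and Dctpp1, which clears modified dCTP, had −0.91 ± 0.29 and −0.84 ± 0.25 (SE; limma adjusted p = 0.239 and 0.214), and were picked out after their values were seen. Of the 11 nucleoside mono- and diphosphate kinases 0 passed (median −0.01), and of the 4 measured genes of the folate cycle that feeds thymidylate synthesis 0 passed (median −0.19). Of the 7 genes of pyrimidine ribonucleotide synthesis 0 passed (median −0.34), and of the 2 nucleoside transporters tested 0 passed (median −0.37). Of 13 purine ribonucleotide genes 1 fell: Prps1, which makes the ribose donor of both pathways. Its signals were 1234 and 1367 in Ethanol and FGF2, against 2383 and 2517 in FGF2, while Ethanol and TGF-beta1 arrays had 1450.1 and 1973, against 2798 and 2698 in TGF-beta1 (log2 fold change −0.80 ± 0.16, SE; limma adjusted p = 0.0413). The median of that list was −0.27, with 12 of 13 below 0, where 46.0% of all genes tested were.

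**Figure D5:**
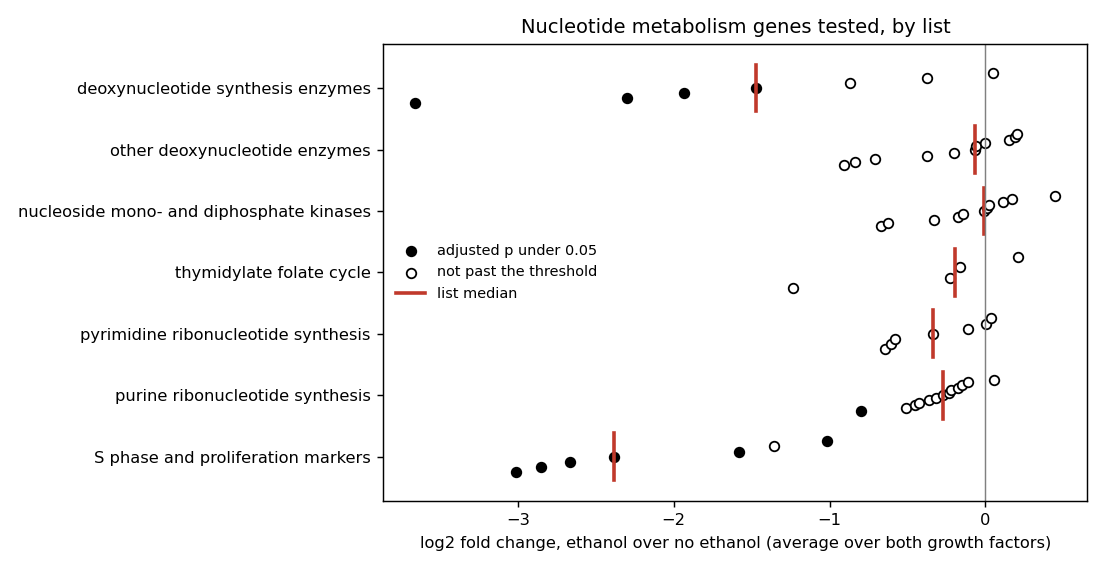
Log2 fold change of ethanol over no ethanol in the average for every tested gene of 7 lists; filled points have an adjusted p under 0.05 by limma and red bars are list medians. The members and the S phase markers hold 10 of the 11 filled points, and Prps1 is the other. The lists were chosen with earlier results of these data known.

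Markers of S phase and proliferation moved with the members: 6 of 7 fell (Mki67, Pcna, Mcm5, Top2a, Ccne1 and Ccna2), with a median of −2.38, where 1.80% of all genes tested fell. As for every gene, 0 were called without both doubted arrays. The list was chosen with earlier results of these data known, so its count is a description. Mki67, a marker of cycling cells, had −2.67 ± 0.26 and Pcna, the replication clamp, −1.02 ± 0.19 (SE; limma adjusted p = 0.00247 and 0.0305). The summed signal of the 7 markers was 4025 to 6596 with ethanol and 11908 to 22993 without. The summed signal of the 10 neuronal markers was 9287 to 14041 with and 5690 to 11869 without ethanol, so the ranges overlapped, and 0 of 7 tested passed in the average. Most of that sum was Map2, with signals from 5331 to 12179. In the average 5 of the 7 were above 0 and 2 below, with a median of 0.57. Tubb3 and Dcx had 1.60 ± 0.39 and 1.56 ± 0.36 (SE; limma adjusted p = 0.0938 and 0.0811). Signals of Tubb3 were 215 to 452 with and 20.3 to 207 without ethanol. Map2 and Tubb3 were picked out after their values were seen. Dcx, a marker of young neurons, rose within TGF-beta1 (2.70 ± 0.52, SE; limma adjusted p = 0.0488), with 1013 and 413 with TGF-beta1 and ethanol, against 56.5 and 109 in TGF-beta1 alone. That call was lost without Ethanol and TGF-beta1 replicate 1, the doubted array, and without either TGF-beta1 array, since 0 genes were then called in this comparison. Neural stem markers summed to 76995 to 100563 with and 59365 to 114681 without ethanol, and 0 of 7 tested passed. Astrocyte markers summed to 47504 to 54808 with and 30858 to 51569 without, with 0 of 6 past the test. In the average 4 of these 6 were above 0 and 2 below. Gfap, picked out after its values were seen, had 6058 and 1281 in Ethanol and FGF2, against 534 and 61.9 in FGF2. It had 668 and 8284 with TGF-beta1 and ethanol, against 2102 and 2461 in TGF-beta1 alone (log2 fold change 1.87 ± 0.85, SE, limma adjusted p = 0.478). The 5 oligodendrocyte markers on the array summed to 6265 to 10165 with and 4889 to 9363 without ethanol, and 1 was tested and did not pass. The part of any such list in the falls of the members was not tested.

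Tk1, Rrm1, Rrm2, Dut and Dtymk followed one another over the 8 arrays, with Pearson correlations of their log2 values from 0.81 to 0.98 in 10 pairs. Dck had 0.26 to 0.67 with these 5, and Tyms −0.35 to 0.32 with the others. The arrays fall into those with and without ethanol, so these values share that gap and are given as a description. The genes most like each member over the 8 arrays were Cul2, Nusap1 and Plk4 for Tk1 (r from 0.994 to 0.995), Lig1, Spc25 and Cdc20 for Rrm1 (0.996 to 0.998), and Pbk, Uhrf1 and Zwilch for Rrm2 (0.983 to 0.988). They were Fancb, Gins2 and Cenpw for Dut (0.988 to 0.994), Lrrc40, Nectin2 and Hdac1 for Dtymk (0.974 to 0.993) and Rad21, Asxl2 and Trnt1 for Dck (0.979 to 0.996). For Tyms, near background, they were Adgrb1, Slamf1 and Trpm3 (0.975 to 0.982).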

How the data were processed

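The authors deposited linear signal intensities, 1 for each probe set on each array, from MAS5 and GCOS per the submitters' processing notes. Versions are not given in the sources used here. The 2% trimmed mean was 500 on each of 8 arrays, so each had been scaled to 1 target. Probe sets were named from GEO's platform annotation, and positions and promoters from RefSeq (GRCm38.p6). For each of 18193 genes the probe set of 1 symbol that was brightest by mean log2(signal + 23.66) stood for the gene, where 23.66 is the 25th percentile over every signal. The 10916 genes whose mean reached the 40th percentile were tested. Limma 3.58.1 in R 4.3.3 fitted 1 mean per group over all arrays (4 residual degrees of freedom, moderated with a trend), and p values were adjusted by Benjamini-Hochberg over all genes in each of 6 comparisons. Fold changes are on the log2(signal + constant) scale. Differences between relatives had an exact permutation test. Genes named were the members, the relatives, list genes past the threshold and the 3 genes most correlated with each member, with exceptions stated. Members and lists were chosen with earlier results of these data known. Replicate numbers are in the labels of every group, but deviations of samples with 1 number did not correlate in every pair of groups. The r was 0.47 between FGF2 and TGF-beta1, the only pair without a doubted array. It was −0.44 between the ethanol groups and −0.13 to 0.05 in the other 4 pairs, so no pairing was used. Alternatives were the constant, the filter, quantile normalization, probe sets, moderation, the model, a replicate block and arrays left out.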

Additional observations from a re-analysis of the deposited data

Results flagged for a closer look

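In each set of 4 arrays, with or without ethanol, the 15 member probe sets above the filter were checked for an array far from the other 3 by Dixon's ratio, and 4 of 30 sets had one; chance gives about 1 in 20. In Ethanol and FGF2 replicate 1, Dck (1439012_a_at) had a signal of 1524 and Dtymk (1438096_a_at) one of 1085, both far below the other ethanol arrays. Other probe sets of these genes differed on that array. Dtymk 1452681_at and 1449116_a_at had 2532 and 543, each the highest of the ethanol arrays. Dck 1428838_a_at had 96.5, also the highest, while Dck 1449176_a_at had 190, the lowest. In FGF2 replicate 2, Rrm2 (1416120_at) had 91.8 and Dck (1428838_a_at) 43.3, both far below the other arrays without ethanol.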

How the results depend on the processing

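The log2 fold changes of Tk1, Rrm1, Rrm2, Dut and Dtymk in the ethanol average kept their sign in all 20 alternatives. The members called in the average were 2 to 5 with 1 array left out and 0 without both doubted arrays (2 residual degrees of freedom), where Tk1, Rrm1, Rrm2 and Dut had adjusted p of 0.0721, 0.0846, 0.0611 and 0.133. The count within TGF-beta1 was 0 to 3 with 1 array left out, 0 without both doubted arrays, 0 without a trend in the moderation and 0 with a replicate block (Tk1, Rrm1 and Dut at adjusted p of 0.0732, 0.0843 and 0.0629). The count within FGF2 was 0 to 1 with 1 array left out. The replicate block left 4 members called in the average, as did a fit of ethanol alone, without the growth factor labels. Deviations of samples with 1 number had r = −0.44 between the ethanol groups, which hold both doubted arrays. With the numbers of Ethanol and FGF2 crossed, an alternative chosen after seeing the data, 2 members were called within FGF2. Whether these numbers are crossed was not tested. Over all genes, the 217 calls in the average became 119 with the 60th percentile filter, 92 without TGF-beta1 replicate 1, 130 without Ethanol and TGF-beta1 replicate 1 and 0 without both doubted arrays, and the 130 within TGF-beta1 became 0 with the block. Fits with arrays left out use fewer samples; beyond that the cause was not tested.

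Without both doubted arrays the differences by ethanol were −3.13 for Tk1 less Tk2, −1.998 for Rrm2 less Rrm2b (adjusted p = 0.1 each, the smallest possible) and 0.10 for Dck less Dguok. Signs turned only in values that had not passed. Without both doubted arrays, Dck had 0.15 in the average, 0.28 within FGF2, −0.25 in the interaction and −0.28 between the growth factors with ethanol. In the same setting the interaction was 0.14 for Rrm1, −0.11 for Rrm2 and −0.41 for Dtymk, and Dtymk had −0.0043 between the growth factors with ethanol. With quantile normalization Tyms had −0.10 in the average and Dck −0.0027 within TGF-beta1. With the mean of all probe sets, Dck had −0.47 within TGF-beta1 and 0.38 between the growth factors without ethanol, Rrm2 and Dtymk −0.28 and −0.51 in the interaction, and Dtymk −0.031 between the growth factors with ethanol. Tyms was not tested there or with the 60th percentile filter.

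With 1 array left out, Dck ran from −0.90 to 0.15 in the average, −1.81 to 0.28 within FGF2, −0.13 to 0.16 within TGF-beta1, −0.26 to 1.83 in the interaction, −0.17 to 0.12 between the growth factors without and −0.29 to 1.80 with ethanol. Tyms ran from −0.22 to 0.32 in the average, −1.06 to 0.036 within FGF2 and −1.05 to 0.038 between the growth factors without ethanol. The interaction ran from −1.06 to 0.67 for Tk1, −0.90 to 0.017 for Rrm1, −0.40 to 1.00 for Rrm2 and −1.02 to 0.17 for Dtymk. Between the growth factors with ethanol the values ran from −0.19 to 1.55 for Tk1, −0.064 to 0.74 for Rrm1, −0.044 to 1.35 for Rrm2 and −0.73 to 0.46 for Dtymk. Dim probe sets, as those of Tyms, limit what can be read.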

Other observations

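A probe set that lists both Tyms and its pseudogene Tyms-ps (1424991_s_at) cannot be assigned to either. Its signals were 324 and 249 in Ethanol and FGF2, against 693 and 529 in FGF2. In Ethanol and TGF-beta1 they were 238 and 312, against 1253 and 1311 in TGF-beta1. All 4 ethanol arrays lay below all 4 without ethanol, unlike the dim probe sets that name Tyms alone.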
